A study of Mus musculus with 30 samples.

Results

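The kinase machinery of the G1 phase of the cell cycle was followed through 10 of the 21631 protein-coding genes on mouse chromosomes 1 to 19 and X. These were the kinase genes Cdk6, Cdk4 and Cdk2, the D-type cyclin genes Ccnd1, Ccnd2 and Ccnd3, the Cip/Kip inhibitor genes Cdkn1a and Cdkn1b, and the Ink4 inhibitor genes Cdkn2c and Cdkn2d. The genes were listed by name and not by any measured value. All 10 were found in the RefSeq gene table for GRCm38.p6, the mouse build also called mm10. For each gene, the length covered by H3K4me3 peaks within the gene and 1 kb on either side was summed in 5 peak lists, and V5 and AM sites within 10 kb of the gene were counted in 5 others.

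The ChIP-seq libraries came from cultured C57BL/6 cells. In lines with ER in their name, Hoxa9, a homeodomain factor of blood progenitors, is tied to a hormone-binding part of the estrogen receptor. The tied protein works while estradiol (E2) is supplied. H3K4me3 was profiled in ER-Hoxa9-Lys-GFP cells kept in E2, in cells deprived of E2 for 24, 40 or 72 h and then given E2 again for 96, 80 or 48 h, and in cells deprived for 120 h with no E2 given back. Below, 24, 40 and 72 h name the length of withdrawal before restoration. A longer withdrawal went with a shorter restoration, so the 2 cannot be told apart. V5 sites were listed for V5-ER-Hoxa9-AM cells deprived of E2 for 72 h and given it back for 48 h and for the same cells in E2, AM sites for these cells in E2, and both for untreated V5-Hoxa9-AM cells, whose name holds no ER. V5 and AM are the tags named at either end of the construct, and both AM samples carry V5 as their antibody label. All cells grew in medium with 10% serum and stem cell factor, and the labels do not say whether a line was a single clone. Only 1 library stood behind each condition and target. No difference below could be checked against replicates or tested, and no p-value is given.

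In G1, D-type cyclins bind CDK4 and CDK6, and cyclin E binds CDK2. These kinases phosphorylate the retinoblastoma protein RB1, which frees E2F factors to switch on genes of DNA synthesis. Ink4 proteins block CDK4 and CDK6, whereas Cip/Kip proteins act mainly on CDK2 complexes. Myeloid precursors leave the cell cycle as they mature, and CDK6 is known to hold back that step in blood progenitors. Trimethylation of lysine 4 of histone H3 (H3K4me3) marks the start regions of active or poised genes. Peak length says how far along the DNA the mark was called, not how strong it was and not how much RNA was made.

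The H3K4me3 lists covered 10.35 Mb in E2 and 14.23, 14.88, 16.04 and 17.30 Mb after 24, 40, 72 and 120 h, and the number of reads behind them is unknown here. The median log2 ratio of covered length over genes marked in either list, with 50 bp added to each length, was 0.59 for 120 h over E2, 0.35 for 24 h over E2, 0.40 for 40 h over E2 and 0.54 for 72 h over E2. It was 0.11 for 72 h over 40 h and -0.01 for 72 h over 120 h. Ratios below are therefore given relative to that median ("centred"), and a gene was called higher or lower when its centred ratio passed 2-fold. Markers of 2 myeloid stages differed along with the conditions. The 5 progenitor markers (Kit, Cd34, Flt3, Myb and Mpo) had a peak in every list, with a summed length of 22732, 24495, 24367 and 22324 bp in E2 and at 24, 40 and 72 h, and 10630 bp at 120 h. The 7 markers of neutrophil maturation summed to 0, 200, 442, 2733 and 20724 bp in the same order, with 0, 1, 2, 2 and 7 of them marked, and Lcn2, Ltf, Ngp, S100a8 and S100a9 were at 0 in every list before 120 h. The 4 monocyte markers went opposite ways. Ccr2 covered 4244, 3388, 3632, 1242 and 0 bp over the series, whereas Csf1r, Cd14 and Klf4 covered 3040, 1371 and 1998 bp at 120 h and 0 bp in E2 (summed length of the 4 in series order 4244, 3388, 3632, 1460 and 6409 bp). Lymphoid markers summed to 1359, 1668, 1876, 397 and 608 bp, which was all Rag2 up to 72 h and all Cd79a at 120 h, with Cd3e at 0 throughout. Erythroid markers summed to 633, 515, 1390, 1639 and 1524 bp with Gata1 at 0 throughout, and fibroblast markers to 0, 461, 411, 225 and 227 bp with Col1a1 and Dcn at 0 throughout. The part of this change in cell stage in the values of the G1 genes was not tested, and a change in each cell cannot be told apart from a change in the share of cells that carry a peak.

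Most of the 10 genes carried H3K4me3 under every condition. The mark was present at 9, 9, 9, 9 and 10 of them in E2 and after 24, 40, 72 and 120 h, against 47.1%, 50.7%, 50.5%, 51.4% and 53.2% of all genes, and 9 of 10 were marked in all 5 lists against 46.0% of all genes. Ccnd1 was the exception. Between 120 h and E2, Ccnd1 and Ccnd3 were called higher and Ccnd2 lower. Of the 11594 genes marked in at least 1 of these lists, 20.0% were higher and 3.67% lower, so 3 calls in 10 genes lay near the 23.6% of the background. Of all calls in that pair, 84.5% were higher with centring and 96.0% without it. The other 7 genes stayed within 2-fold, and 7 of the 10 had a centred ratio below 0, with a median of -0.15.

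**Figure D1:**
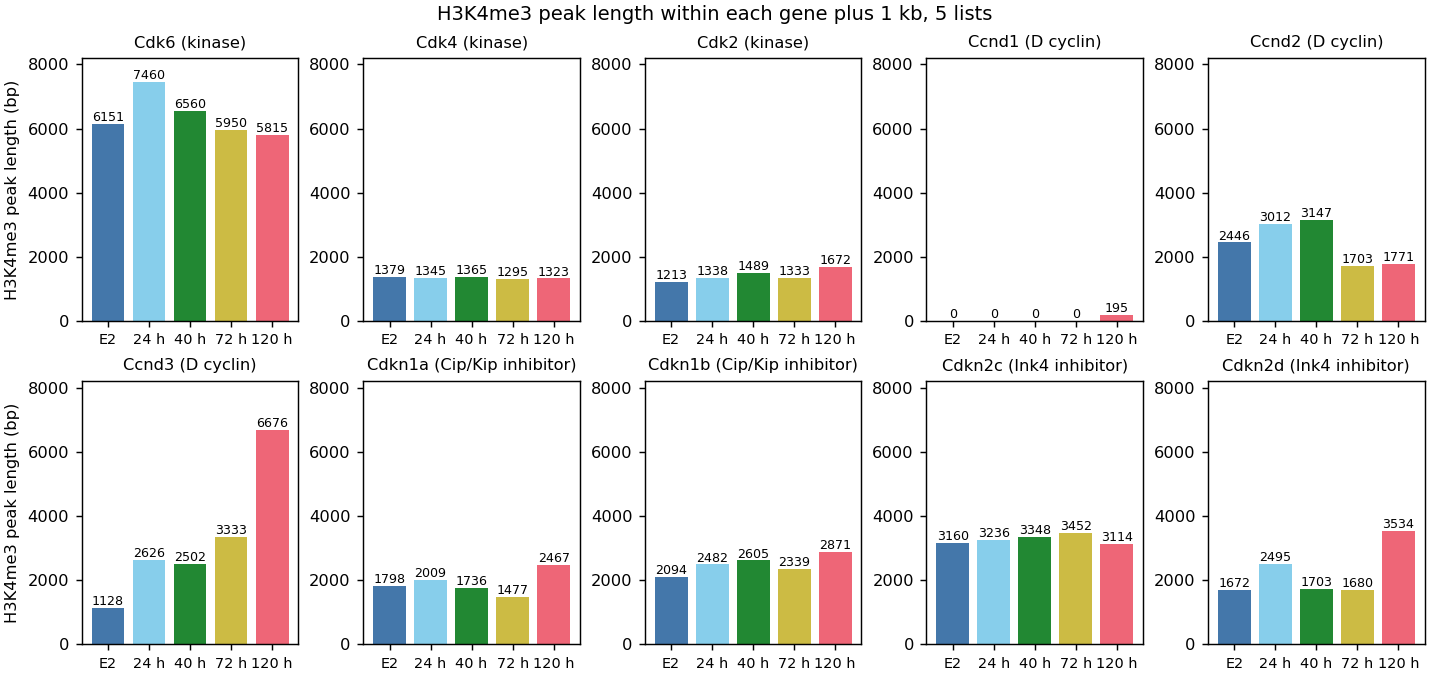
Length in bp covered by H3K4me3 peaks within each of the 10 genes and 1 kb on either side (vertical axis). Bars are the lists in E2, after 24, 40 or 72 h without E2 followed by E2, and after 120 h without E2. Each bar is 1 library, with its value above it. Cdk6 stands between 5815 and 7460 bp in every list, Ccnd3 reaches 6676 bp at 120 h against 1128 bp in E2, and Ccnd1 has 195 bp at 120 h and 0 bp elsewhere.

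The spread over the 5 lists separated the genes. On a log2 scale with 50 bp added, the SD over the lists was 1.03 for Ccnd1, 0.90 for Ccnd3, 0.47 for Cdkn2d and 0.41 for Ccnd2. It was 0.27 for Cdkn1a, 0.17 for Cdkn1b and for Cdk2, 0.14 for Cdk6, 0.06 for Cdkn2c and 0.03 for Cdk4. The value for Ccnd1 rests on 0 bp in 4 lists and 195 bp in 1. The median was 0.31 over the 9956 genes marked in every list and 0.36 over the 11848 marked in any, and Ccnd1, Ccnd2, Ccnd3 and Cdkn2d lay above both, the other 6 genes below both.

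**Figure D2:**
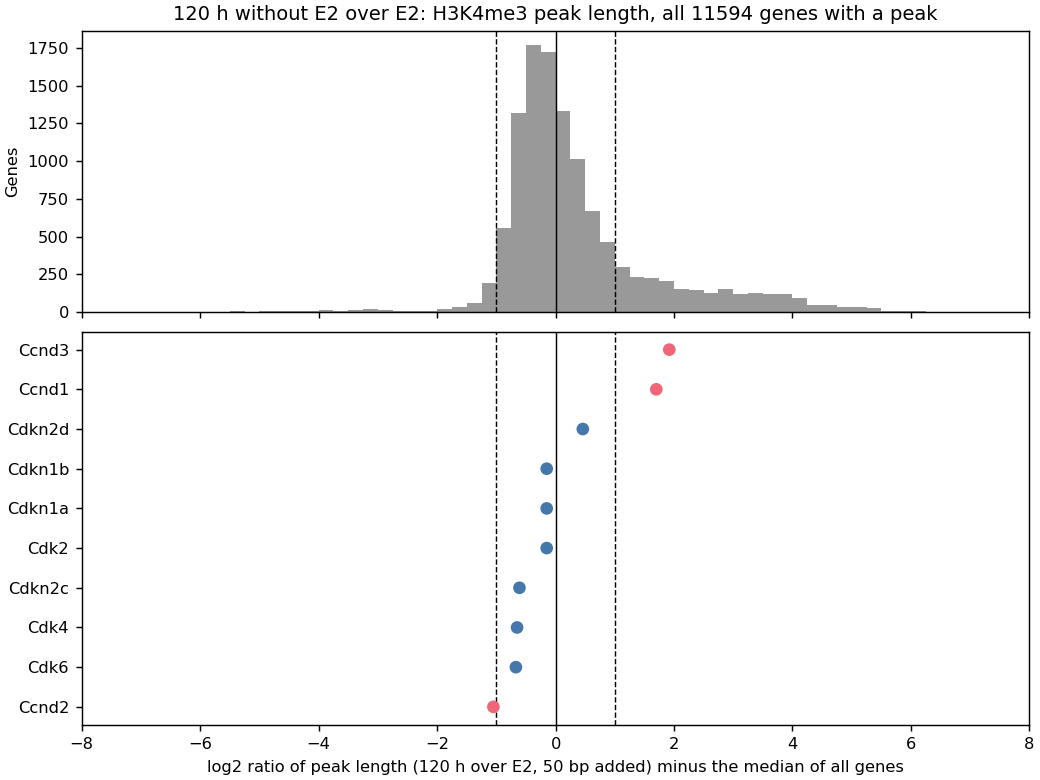
Centred log2 ratio of H3K4me3 peak length, 120 h without E2 over E2, with 50 bp added to each length. The upper panel is a histogram over the 11594 genes marked in at least 1 of both lists, and the lower panel shows the 10 genes as points. Dashed lines mark 2-fold. Ccnd3 at 1.92 and Ccnd1 at 1.70 lie past the right line and Ccnd2 at -1.05 past the left.

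RefSeq promoter sequences on GRCm38.p6 were matched for 8 of the 10 genes, with 11 annotated starts in all. Ccnd1 and Ccnd2 had no entry. Of these, 5 are printed as the 250 bases before the start, 5′ to 3′ on the gene's own strand. They are those of Cdk6, which among the 10 genes had the longest H3K4me3 cover in every list but that at 120 h, of both starts of Ccnd3, which of the 8 matched genes had the widest spread of H3K4me3 length over the lists, of Cdkn2d, whose peak was longest at 120 h, and of Cdk2, the only member promoter with an E2F match. They lie at chr5:3343643-3343892 (plus strand, Cdk6), chr10:128705052-128705301 (minus, Cdk2), chr17:47504801-47505050 (plus, upstream start of Ccnd3), chr17:47593217-47593466 (plus, downstream start of Ccnd3) and chr9:21291210-21291459 (minus, Cdkn2d). Capitals mark matches to the GC box GGGCGG, which reads CCGCCC where it lies on the opposite strand, and in Cdk2 also the E2F match TTTCCCGC, which lies on the opposite strand and reads GCGGGAAA.
Cdk6: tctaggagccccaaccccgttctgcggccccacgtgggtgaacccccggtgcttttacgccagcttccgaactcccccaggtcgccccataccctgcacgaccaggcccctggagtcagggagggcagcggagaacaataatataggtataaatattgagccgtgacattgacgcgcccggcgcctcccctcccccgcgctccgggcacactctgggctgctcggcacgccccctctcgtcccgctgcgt
Cdk2: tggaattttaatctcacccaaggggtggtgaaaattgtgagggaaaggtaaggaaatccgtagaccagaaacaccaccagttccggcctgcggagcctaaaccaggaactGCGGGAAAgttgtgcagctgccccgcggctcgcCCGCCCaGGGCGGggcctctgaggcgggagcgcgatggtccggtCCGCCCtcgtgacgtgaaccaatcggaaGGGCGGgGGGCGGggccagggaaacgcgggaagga
Ccnd3 upstream start: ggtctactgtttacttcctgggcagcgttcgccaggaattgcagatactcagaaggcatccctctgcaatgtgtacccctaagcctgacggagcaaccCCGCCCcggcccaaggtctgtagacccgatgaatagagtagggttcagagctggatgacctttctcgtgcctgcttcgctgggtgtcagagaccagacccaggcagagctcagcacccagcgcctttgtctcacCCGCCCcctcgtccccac
Ccnd3 downstream start: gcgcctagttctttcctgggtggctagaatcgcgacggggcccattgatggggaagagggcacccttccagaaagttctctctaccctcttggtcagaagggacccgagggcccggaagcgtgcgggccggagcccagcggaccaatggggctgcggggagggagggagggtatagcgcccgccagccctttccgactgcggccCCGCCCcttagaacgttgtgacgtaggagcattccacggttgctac
Cdkn2d: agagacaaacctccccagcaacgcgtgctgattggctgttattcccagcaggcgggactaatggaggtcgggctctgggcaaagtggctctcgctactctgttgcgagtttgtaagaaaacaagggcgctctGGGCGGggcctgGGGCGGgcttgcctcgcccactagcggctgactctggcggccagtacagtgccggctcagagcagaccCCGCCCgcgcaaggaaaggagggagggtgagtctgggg

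The whole window of 250 bases before and 50 after each start was searched on both strands. A GC box, the usual site of SP1-type factors, lay in 8 of the 11 member promoters and in 46.7% of 21045 promoters of protein-coding genes. E2F motifs (TTTCGCGC, TTTGGCGC, TTTCCCGC or TTTGCCGC) lay in 1 of 11, that of Cdk2 with its first base at -140, and in 2.88% of all promoters. The HOX and PBX motifs TGATTTAT, TGATTTAC and TGATTGAT lay in 0 of 11 and in 1.97% of all. The HOXA9 core TTTATGG or TTTACGG lay in 0 of 11 and in 3.38%, and the C/EBP motifs TTGCNNCAA and TTGCNTAA in 0 of 11 and in 4.12%. GC content of the 250 bases was 66.0% for Cdk6, 63.2% for Cdk2, 63.6% for Cdkn2d, and 59.6% and 64.8% for the upstream and downstream start of Ccnd3.

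Among the kinase genes, Cdk6 had by far the longest cover. Cdk6 (chromosome 5, 3341004 to 3531008, start at 3343893) covered 6151 bp in E2 and 7460, 6560, 5950 and 5815 bp at 24, 40, 72 and 120 h. These values lay between the 99.5 and the 99.9 percentile of genes with a peak, and the highest was 1.28 times the lowest. What differed was the shape of the domain around the start. At 72 h it was a single peak of 5950 bp from -3392 to +2557 bp of the start, which was rank 1 of the 21790 peaks in that list. The widest Cdk6 peak of the other lists was 1698 bp (rank 328) in E2, 2270 bp (rank 165) after 24 h, 2708 bp (rank 115) after 40 h and 4222 bp (rank 16) after 120 h. Joined across gaps of up to 1 kb, the domain measured 6975 bp in E2 and 7161, 6172, 5950 and 4491 bp at 24, 40, 72 and 120 h. Its downstream edge lay at +2553, +2649, +2695, +2557 and +1362 bp in that order. The 120 h domain thus ended more than 1 kb nearer to the start than any other, while its upstream edge lay at -3128 bp against -4421 bp in E2. Relative to all genes the centred log2 ratio of 120 h over E2 was -0.67 over the whole gene (percentile 11.1), which is within 2-fold. Counted at the gene ends only it was -1.09, past the threshold, but the windows at the ends do not reach the annotated start. Within 1 kb of that start it was -0.47, and every other setting also kept it within 2-fold.

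Cdk4 and Cdk2 had shorter domains than Cdk6. The highest covered length was 1.06 times the lowest for Cdk4 and 1.38 times for Cdk2, against 1.28 times for Cdk6. Cdk4 (chromosome 10, 127063535 to 127067288) covered 1379, 1345, 1365, 1295 and 1323 bp in E2 and at 24, 40, 72 and 120 h, the narrowest spread of the 10 genes. Its main peak began 51 to 108 bp after the start in the first 4 lists and at -1 bp at 120 h, when a second peak of 209 bp lay at -420 to -212 bp. Because the typical gene was longer at 120 h, the near-constant length of Cdk4 gave a centred log2 ratio of -0.65 for 120 h over E2 and a percentile among marked genes of 47.3 at 120 h against 73.0 in E2. Cdk2 (chromosome 10, 128697938 to 128705051, minus strand) covered 1213, 1338, 1489, 1333 and 1672 bp over the series. It had a second, upstream peak at 40 h (237 bp) and at 120 h (260 bp) only, and its centred ratio for 120 h over E2 was -0.15. Cdk2 lies within the annotated span of Pmel, and all of its peak length fell in the window of both genes.

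**Figure D3:**
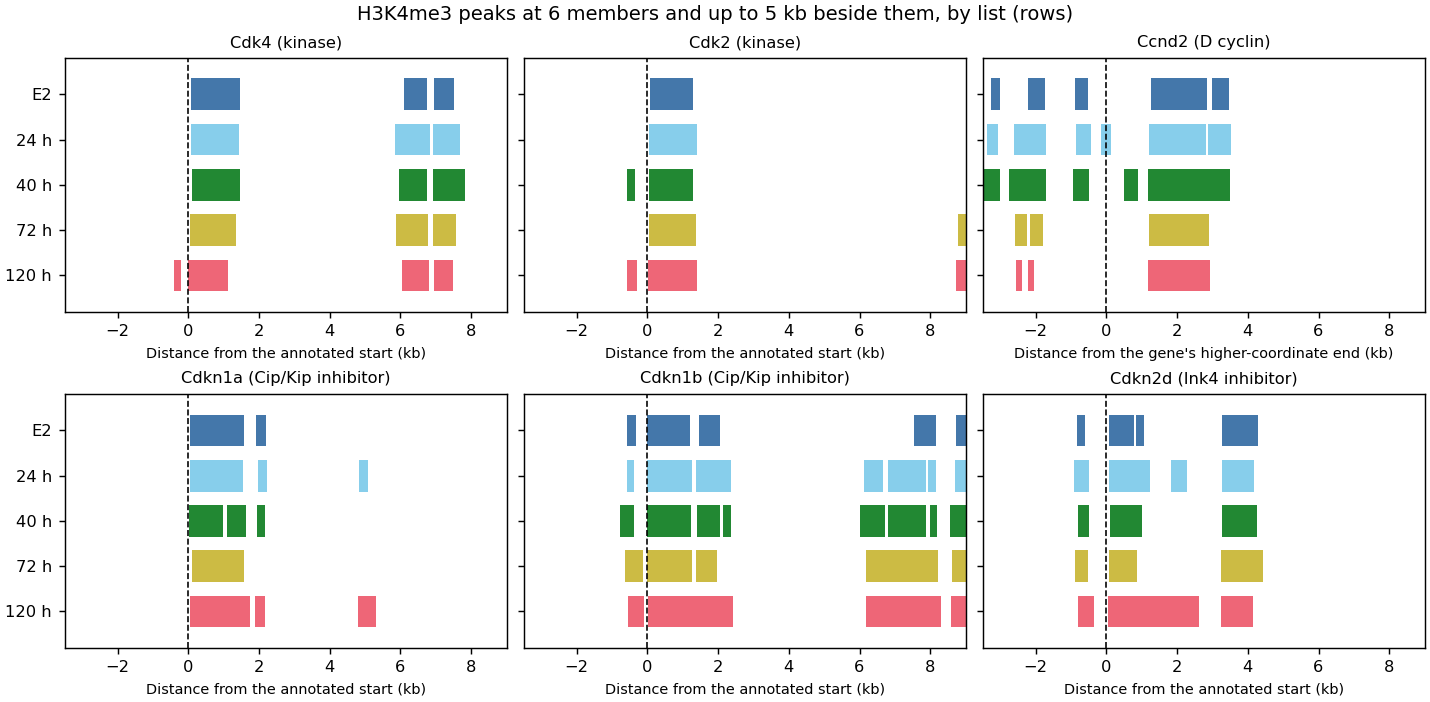
Positions of H3K4me3 peaks (bars) in the 5 lists (rows, E2 at the top and 120 h at the bottom) at 6 of the genes and up to 5 kb beside them, in kb from the annotated start used (dashed line), or, for Ccnd2, from the end of the gene with the higher coordinate. At Ccnd2 the short peaks between -1 and 1 kb are in the lists in E2 and at 24 and 40 h and absent at 72 and 120 h, and at Cdkn2d a single peak of 2560 bp stands at 120 h.

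The 3 D-type cyclin genes went separate ways. Ccnd3 had more cover under every withdrawal condition than in E2, Ccnd2 had less at 72 and 120 h, and Ccnd1 was almost unmarked. Ccnd3 (chromosome 17, 47505051 to 47599689), the D-type cyclin gene with roles in lymphoid and myeloid cells, covered 1128 bp in E2 and 2626, 2502, 3333 and 6676 bp after 24, 40, 72 and 120 h. The highest value was 5.92 times the lowest, and its percentile among marked genes was 99.8 at 120 h against 59.4 in E2. The centred log2 ratio was 1.92 for 120 h over E2. It was 0.83 for 24 h, 0.71 for 40 h and 0.98 for 72 h, each over E2, which all fell short of 2-fold. For 120 h over E2 the value was 4.34 at the gene ends only and 1.10 within 1 kb of the annotated starts. At the gene ends Ccnd3 had no peak in E2, so the 4.34 rests on the 50 bp added. With each list reduced to its wider peaks, those over the median width, the value was -0.21 for 24 h and -0.34 for 40 h over E2.

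The annotation gives Ccnd3 2 starts, 88416 bp apart. Within 1 kb of the upstream start at 47505051, peaks covered 0 bp in E2 and 742, 779, 1168 and 1484 bp after 24, 40, 72 and 120 h. Within 1 kb of the downstream start at 47593467 they covered 738, 701, 709, 907 and 970 bp. The upstream start was thus unmarked in E2 alone, whereas the downstream start was marked in all 5 lists. At 24 and 40 h the upstream start lay between 2 short peaks, and at 72 and 120 h a single peak of 1168 and 1726 bp spanned it. In 534 annotated starts of the same kind, unmarked in E2 in a gene with another marked start over 5 kb away, 10.7% were marked at 120 h. In 5.43% a peak was present at 24, 40, 72 and 120 h, as at Ccnd3, and in 0.936% (5 starts, that of Ccnd3 included) the cover at 120 h was at least as long as at Ccnd3. The class of starts follows the pattern of Ccnd3 and the length cut is its own value, so these shares describe Ccnd3 and do not test it. Downstream, the joined domain ran from +31 to +4101 bp at 120 h (4071 bp), against +263 to +1390 bp in E2 (1128 bp), and measured 1729, 1659 and 1847 bp at 24, 40 and 72 h. Further peaks lay between the starts, 333 to 492 bp long about 3 kb after the upstream start in every list but E2, and at 72 and 120 h near +18 kb. From 1 to 5 kb before the upstream start, peaks covered 620 bp in E2 and 1090, 985, 892 and 1025 bp after 24, 40, 72 and 120 h.

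**Figure D4:**
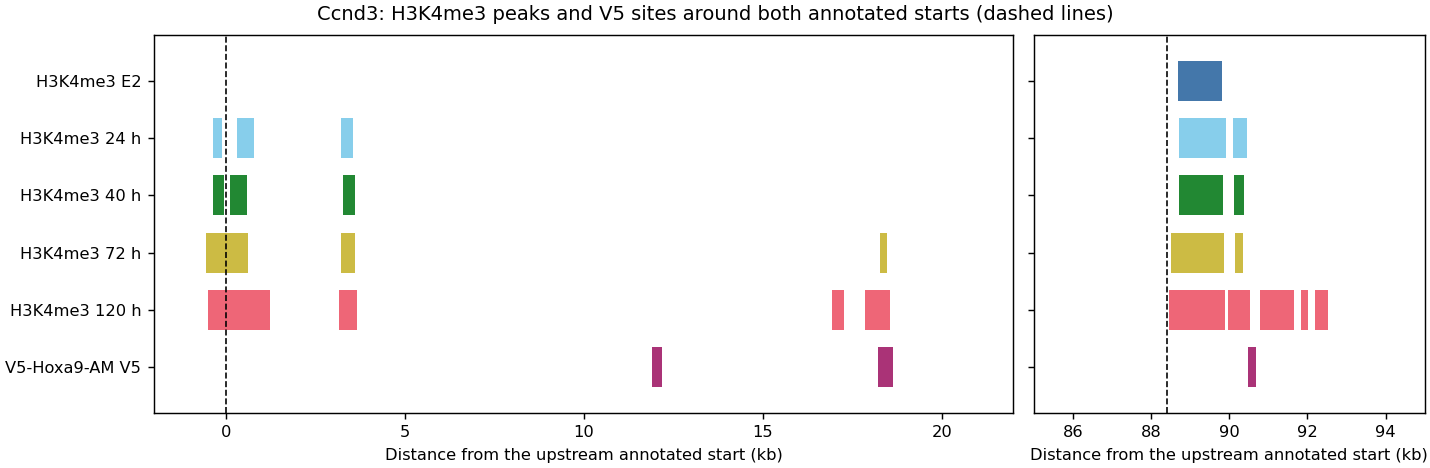
H3K4me3 peaks at Ccnd3 in the 5 lists (upper 5 rows) and V5 sites of V5-Hoxa9-AM cells (lowest row), in kb from the upstream annotated start. Dashed lines mark the upstream start (left panel) and the downstream start (right panel). No peak lies at the upstream start in E2, while at 120 h a peak of 1726 bp spans it.

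Ccnd2 (chromosome 6, 127125162 to 127152188), the D-type cyclin gene tied to growth factor signalling in progenitors, covered 2446 bp in E2, 3012 and 3147 bp after 24 and 40 h, and 1703 and 1771 bp after 72 and 120 h. Both values from 72 h on lay below all 3 values up to 40 h. Centred log2 ratios were -1.05 for 120 h over E2 (percentile 3.24) and -1.05 for 72 h over E2 (percentile 1.61), both called lower, and -0.98 for 72 h over 40 h, just short. Of all genes 1.74% were lower in 72 h over E2. The central peak differed little, at 1598 and 1623 bp in E2 and after 24 h and at 1703 and 1771 bp after 72 and 120 h. The shortening lay in its flanks. Peaks at 127148725 to 127149211 (487 bp) and 127152719 to 127153079 (361 bp) in E2 had counterparts at 24 h (650 and 448 bp). At 40 h the lower of them was joined to the central peak (2299 bp in all) and the upper stood apart at 127152681 to 127153135 (455 bp). Neither was present at 72 or 120 h. From 1 to 5 kb beyond the end of the gene with the higher coordinate, peaks covered 761, 1226, 1509, 679 and 358 bp over the series. Without centring, the ratio for 120 h over E2 was -0.45, so the call depends on the longer cover of the typical gene at 120 h. It was also lost with 200 bp added (-0.95), with lists of equal length (-0.94) and with peaks above the median width (-0.50). The call for 72 h over E2 was lost without centring (-0.51), with peaks above the median width (-0.40), with 200 bp added or lists of equal length (-0.96 each) and with 5 kb on either side of the gene (-0.99).

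Ccnd1 (chromosome 7, 144929931 to 144939831), the D-type cyclin gene best known from epithelial and other non-blood cells, covered 195 bp at 120 h in a single peak at 144932682 to 144932876 and was listed at 0 bp in E2 and at 24, 40 and 72 h. That peak was rank 22458 of 23835 by width, and with 0 bp in E2 no fold is given. With 200 bp added to each length in place of 50, its centred log2 value was 0.46 and the call was lost.

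The Cip/Kip inhibitor genes were marked throughout and stayed within 2-fold. Cdkn1a, which encodes p21, a target of the p53 protein, lies on chromosome 17 from 29090979 to 29100722. It covered 1798, 2009, 1736, 1477 and 2467 bp over the series, lowest at 72 h and highest at 120 h. Its centred log2 ratio was -0.15 for 120 h over E2 and -0.82 for 72 h over E2 (percentile 2.39). A peak of 222 to 274 bp about 2 kb after the start used was in every list but that at 72 h, and a further peak near +5 kb was listed at 24 h (237 bp) and 120 h (509 bp) only. Of the 2 annotated starts, that at 29093769 had 952, 949, 958, 896 and 949 bp within 1 kb and that at 29090979 had 0 bp in all lists. The 250 bases before the unmarked start had 54.0% GC and 2 CpG, and those before the marked start 64.8% GC and 19 CpG.

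Cdkn1b, which encodes p27, an inhibitor that builds up as cells leave the cycle, lies on chromosome 6 from 134920401 to 134925525. It covered 2094, 2482, 2605, 2339 and 2871 bp over the series, with a centred log2 ratio of -0.15 for 120 h over E2. At 120 h a single peak of 2410 bp (rank 338 of 23835 peaks) ran from +12 to +2421 bp, where E2 had separate peaks of 1214 and 617 bp. A separate domain lay behind the gene and was mostly outside the 1 kb window. From 1 to 5 kb beyond that end, peaks covered 1985 bp in E2 and 3154, 3463, 3530 and 3227 bp after 24, 40, 72 and 120 h. Its edge reached into the window at 24 and 40 h alone.

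The Ink4 inhibitor genes differed from each other. Cdkn2c (p18; chromosome 4, 109660876 to 109666756, minus strand) covered 3160, 3236, 3348, 3452 and 3114 bp over the series, between the 93.7 and the 98.5 percentile of marked genes. Its domain spanned both annotated starts in every list, with 1391 to 1834 bp around the upstream and 1795 to 2001 bp around the downstream start, and the centred ratio for 120 h over E2 was -0.61. The 250 bases before these starts differed in GC content, with 77.2% upstream and 42.8% downstream.

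Cdkn2d (p19; chromosome 9, 21288459 to 21291421, minus strand, start at 21291209) covered 1672 bp in E2 and 2495, 1703, 1680 and 3534 bp after 24, 40, 72 and 120 h. The lists in E2 and at 40 and 72 h were nearly the same, and the length at 120 h was 2.11 times the lowest. At 120 h a single peak of 2560 bp ran from +58 to +2617 bp, and 71.21% of the window was covered against 33.69% in E2. The log2 ratio of 120 h over E2 was 1.06 before and 0.46 after centring (percentile 69.3), so Cdkn2d was not called. For 72 h over 120 h the centred ratio was -1.04, called lower. The call was lost with 200 bp added (-0.98), at the gene ends only (-0.63), with 5 kb on either side of the gene (-0.72) and within 1 kb of the annotated starts (-0.21). Within 1 kb of the start alone the ratio for 120 h over E2 was -0.27, and the added length lay further into the gene. The part of the window that also lies within 1 kb of Kri1, a gene 490 bp away, held 898 bp of peaks at 120 h and 494 bp in E2.

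Across the pairs with restored lists, few of the 10 genes were called. No gene was called in 24 h over E2 (background 13.5%), 40 h over E2 (12.5%) or 72 h over 40 h (8.68%). In 72 h over E2 only Ccnd2 was called, lower (15.8% in either direction), and in 72 h over 120 h Ccnd1 and Cdkn2d were lower (11.6% in either direction, 8.98% lower). In each of the first 4 of these pairs 1 or 2 of the 9 genes with a peak lay above the all-gene median, and for 72 h over 120 h it was 2 of 10. The median centred ratio of the genes was -0.11 for 24 h over E2, -0.31 for 40 h over E2, -0.54 for 72 h over E2, -0.25 for 72 h over 40 h and -0.29 for 72 h over 120 h. The pairs over E2 share the E2 list, and those of 72 h share the 72 h list.

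V5 and AM sites were most numerous at Cdk6. Of the 10 genes it was the only one with a site within 10 kb in the lists of V5-ER-Hoxa9-AM cells: 2 V5 sites at 72 h, 3 V5 sites in E2 and 2 AM sites in E2. Of all genes, 1.19%, 3.90% and 0.730% had a site in these lists in that order, and of the 1060 genes at least as long as Cdk6, 4.91%, 16.4% and 4.25%. In V5-Hoxa9-AM cells Cdk6 had 7 V5 and 4 AM sites, where 58.6% and 42.4% of genes at least as long had any. That is 3.33 V5 sites per 100 kb of the gene and 10 kb on either side, against 0.986 over all genes, and 12.3% of genes at least as long had as many or more. By density Cdk6 did not stand first among the 10, since the single site of Cdk4 gave 4.21 per 100 kb and that of Cdkn1b 3.98, and the 3 sites of Ccnd3 gave 2.62. A site in all 5 lists was present at 0.351% of all genes (76 genes) and at 1.89% of genes at least as long as Cdk6.

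The sites in all 5 lists lay deep inside Cdk6. One ran from 3497231 to 3498280 (1050 bp), 153.86 kb after the start, and the other from 3501617 to 3502973 (1357 bp), 158.40 kb after it. By width the longer site was rank 6 of 387 V5 sites at 72 h, 11 of 1417 V5 sites in E2 and 4 of 258 AM sites in E2 in V5-ER-Hoxa9-AM cells, and 30 of 17006 V5 and 30 of 6773 AM sites in V5-Hoxa9-AM cells. The widths are not separate measurements, since both sites had the same coordinates in every list, as did 97.2%, 76.1% and 79.5% of the 3 V5-ER-Hoxa9-AM lists and 91.5% of the AM list when set against V5 in V5-Hoxa9-AM cells. A site at 3405135 to 3405613 was in 3 lists, absent from the 72 h V5 list and the E2 AM list. H3K4me3 lay on the 1357 bp site over 240 bp in E2 and 398, 0, 0 and 583 bp after 24, 40, 72 and 120 h. It lay on no part of the 1050 bp site in any list.

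**Figure D5:**
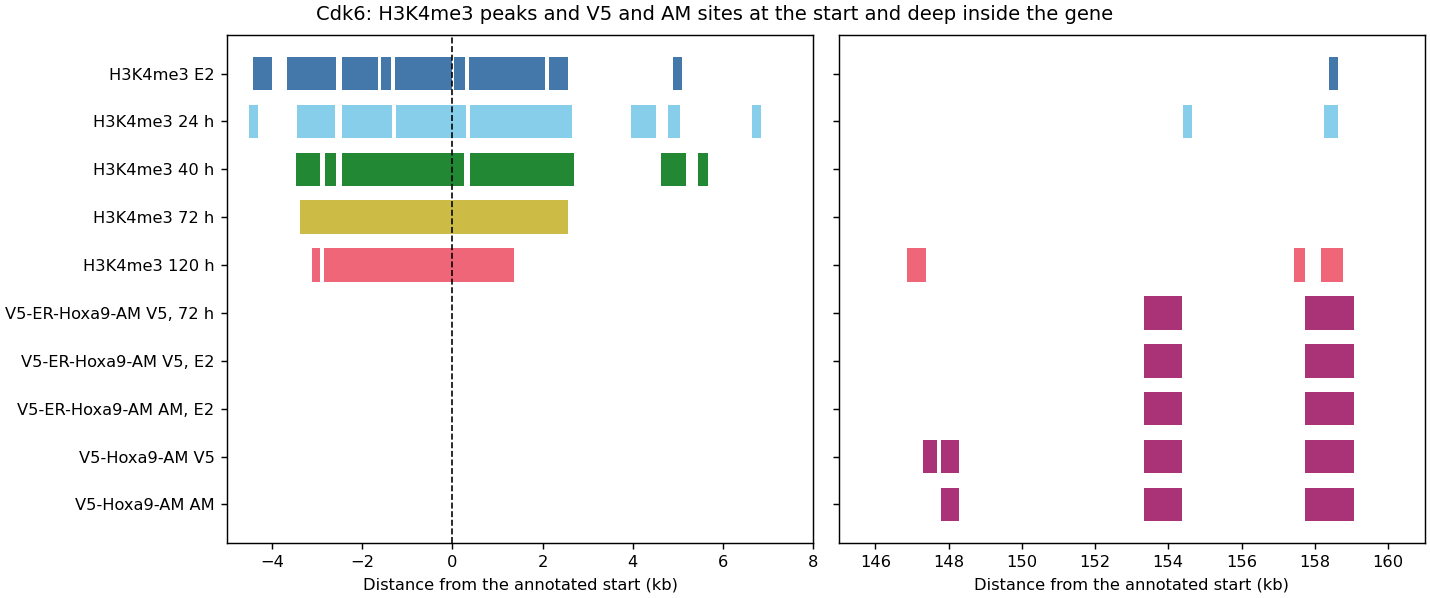
H3K4me3 peaks (upper 5 rows) and V5 and AM sites (lower 5 rows) at Cdk6, in kb from the annotated start, around the start (left) and deep inside the gene (right). The 72 h list has a single peak of 5950 bp at the start, and 2 sites stand at the same place in all 5 V5 and AM lists. The small H3K4me3 peak at the second of them is in the lists in E2 and at 24 and 120 h.

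Other genes had V5 sites in V5-Hoxa9-AM cells only. With Cdk6, 4 of the 10 had a V5 site within 10 kb in that list (33.4% of all genes) and 2 of 10 an AM site (19.0%). Ccnd3 had 3 V5 sites within the gene, at 47516959 to 47517234, 47523275 to 47523677 and 47595525 to 47595732. On the middle of these H3K4me3 covered 0 bp up to 40 h and 205 and 342 bp after 72 and 120 h. On the third it covered 59 bp at 120 h alone. Cdkn1b had a V5 site 2825 bp behind the gene, at 134928350 to 134928567, with 212, 207, 184, 218 and 218 bp of H3K4me3 on it over the series. Cdk4 had a V5 site 8838 bp away. Ccnd1 had an AM site 1448 bp beyond the end of the gene with the higher coordinate, and no V5 site nearer than 19.7 kb. No site lay within 10 kb of Cdk2, Ccnd2, Cdkn1a, Cdkn2c or Cdkn2d. Of the 12 V5 sites, 2, 2, 1, 2 and 6 had H3K4me3 on them in E2 and after 24, 40, 72 and 120 h, against 8.32%, 12.3%, 12.5%, 13.7% and 16.9% of all 17006 V5 sites. The 12 were taken for lying within 10 kb of these mostly marked genes, so the shares over all sites are not a like background. Any overlap counted, down to 59 bp at 120 h, and the V5 sites and H3K4me3 came from different cell lines.

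Genes acting after or around the G1 kinases were mostly marked in every list. All 13 pocket protein and E2F genes were marked throughout, with a median centred ratio of 0.21 for 120 h over E2, and 1 of them was called higher and 0 lower, where 20.0% of all genes were higher, 3.67% were lower and 46.0% were marked in every list. That gene was Tfdp1, the partner of E2F factors, with 559, 1308, 1893, 2105 and 2236 bp over the series (centred ratio 1.32). Rb1 covered 2160, 2912, 3176, 3166 and 3816 bp and was not called, and it had 1 V5 site within 10 kb at 72 h and 2 in E2 in V5-ER-Hoxa9-AM cells. Of 10 genes of later cyclins and CDK activation, 9 were marked in every list, 0 were called and the median was -0.54. Among 9 genes of turnover and upstream control, Fbxo4, an F-box gene named for cyclin D1 turnover, was called higher (249, 317, 0, 347 and 855 bp, centred ratio 1.00) and the median was -0.23. Of 3 other inhibitor genes, Cdkn2a covered 2256, 2751, 3170, 3031 and 3020 bp, and Cdkn1c and Cdkn2b were listed at 0 bp in all lists.

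The genes nearest in pattern to the 3 most variable members were found by the Euclidean distance of log2 lengths over the 5 lists. For Ccnd3 these were Trio (distance 0.37, with 1041, 2293, 2774, 3157 and 5635 bp), Dstn (0.45) and Zbtb7b (0.49). For Cdkn2d they were Cln3 (0.26, with 1858, 2203, 1817, 1756 and 3625 bp), Kctd20 (0.43) and Rchy1 (0.46). For Ccnd1, with a single short peak, Xrcc5, Sh2d1b2 and Slc30a3 all lay at 0.01, with 194 to 197 bp at 120 h and 0 bp elsewhere.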

How the data were processed

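Of 21 peak lists given, 10 were used. As deposited by the authors, they hold coordinates of peaks (unit other) and no score or height. Bowtie2 2.0, BWA, MACS2 2.0, mm9 and mm10 are named per the submitters' processing notes; their roles, the calling threshold and the read depth are not given in the sources used here. Groups came from sample titles. Per the labels' protocols, each histone ChIP took 500 ug of chromatin and each V5 or AM ChIP 30 ug.

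The build was inferred: 43.8% of 21045 annotated starts had a peak of the E2 H3K4me3 list within 1 kb, and 3.27% after a shift of 100 kb. For V5 in V5-Hoxa9-AM cells it was 8.49% and 2.05%, and most V5-ER-Hoxa9-AM sites share those coordinates. The 11 H3K27ac and H3K27me3 lists, which reach 197003115 on chromosome 1, past its last gene end (195176880), were treated as mm9 and not used here.

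Covered length was summed over the gene plus 1 kb with Python 3.11.15 and NumPy 2.4.6, and figures were drawn with matplotlib 3.10.9. The log2 ratio had 50 bp added and the all-gene median taken off, and called means past 2-fold. The code was tested on simulated data. The plan allowed ranking by score; as the lists hold none, width was used. The members, gene lists and motifs were chosen with earlier results of these data known. All 10 members were named in full, list genes if called in 120 h over E2 or with a V5-ER-Hoxa9-AM V5 or AM site within 10 kb, at most 4 a list, and the 3 genes nearest in pattern to each of the 3 most variable members. Alternatives changed the window, the centring, the pseudocount, the peaks kept, merging, the site distance and the overlap.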

Additional observations from a re-analysis of the deposited data

How the results depend on the processing

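With 3 calls of members for 120 h over E2, 1 was left with 200 bp added, with peaks above the median width, with lists of equal length (the 17497 widest peaks) and with 1 kb around annotated starts, an alternative chosen after seeing the data; it was Ccnd3 each time. Ccnd1 had no value under the last 3 of these settings and Ccnd2 none around annotated starts, so neither could be called there. The count was still 3, with other genes, with gene ends only (Ccnd3 higher, Cdk6 and Ccnd2 lower) and no centring (Ccnd1, Ccnd3 and Cdkn2d higher). At the gene ends Ccnd3 had no peak in E2 and Ccnd2 none at 72 or 120 h. Ratios of these genes against such a list rest on the 50 bp added. The Cdk6 windows at the gene ends leave out its annotated start, and Ccnd1 and Cdkn1a had no value there. For 24 h and 40 h over E2, 0 calls became 1, Ccnd3, with gene ends only, no centring or peaks within 1 kb merged. For 72 h over E2, 1 became 2 (gene ends only; merged peaks) or 0 (gene plus 5 kb, 200 bp added, equal length, and annotated starts, where Ccnd2 has no value). It was still 1, but no longer Ccnd2, without centring (Ccnd3 higher) and above the median width (Cdkn1b lower, -1.02). For 72 h over 40 h, 0 became 1 with gene ends only, gene plus 5 kb and merged peaks (Ccnd2 lower) and above the median width (Ccnd3 higher). For 72 h over 120 h, 2 became 0 with gene ends only, 200 bp added or annotated starts and 1 with gene plus 5 kb. With peaks above the median width or lists of equal length it was Ccnd3 and Cdkn2d in place of Ccnd1 and Cdkn2d. Ccnd1 had no value with gene ends only, annotated starts, peaks above the median width or lists of equal length, so it could not be called there. Members with a V5 site in V5-Hoxa9-AM cells numbered 4, 10 within 50 kb and 2 above the median width, and those with an AM site 2 and 1 above the median width. The cause was not tested.

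No called value changed sign. Of the counts, 61 stayed within 1.5 times under the alternatives and 27 did not. Of the single log2 ratios, 425 stayed on their side of 2-fold without a large move, 19 passed it, 15 fell short and 24 moved. Of all genes called for 24 h and 40 h over E2, 69.0% and 74.6% were higher with lists of equal length, against 87.6% and 88.6%. No paired analysis was possible because each condition had 1 library per target; leaving out a replicate was not possible either. Peak calls depend on read depth, which is unknown here, so longer cover in a list cannot be told apart from a deeper library.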
